A study of Neogale vison with 6 samples.

Results

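Ribosomes are assembled in the nucleolus. RNA polymerase I (Pol I) transcribes a long precursor of ribosomal RNA (rRNA) there, small nucleolar ribonucleoprotein particles (snoRNPs) modify it, and a series of assembly factors fold, cut and package it into the small (40S) and the large (60S) ribosomal subunit. The first large assembly on the nascent precursor is the small subunit processome, whose UTP-A (also named t-UTP) and UTP-B complexes bind the precursor early, and the PeBoW complex of PES1, BOP1 and WDR12 acts on the large subunit. The genes of this machinery are expressed in all growing cells, at levels that follow the demand for ribosomes, and the transcription factor MYC is among their known activators.

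The mRNA levels of these factors were examined in Mv1Lu cells, an epithelial line from mink lung, with and without cholesterol depletion (CD). The factors were chosen by gene symbol, with earlier results of these data known. The choice took symbols starting with NOP, UTP, RRP or NOL and a number, and the POLR1 subunits A to H. BOP1, PES1, the NOC2L to NOC4L group, 8 DEAD-box helicases of the DDX family and the GNL2, GNL3 and GNL3L GTPases were included. So were IMP3, IMP4 and 12 further symbols. This choice found 63 of the 24526 genes in the count table, of which 62 had enough reads to be tested. Of the 12 further symbols, NPM1, BYSL, LTV1 and EBNA1BP2 were not found by symbol and were not analysed here. NOL4 had no reads in any library.

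The control group comprised 3 libraries of untreated Mv1Lu cells. The CD group comprised 3 libraries of Mv1Lu cells treated for 16 h with the statin lovastatin, an inhibitor of HMG-CoA reductase, at 50 μM together with mevalonate at 50 μM, in medium containing 10% LPDS, a serum without lipoproteins. Drug, mevalonate and serum were changed together, so that their effects cannot be told apart. Whether the libraries of a group came from separate cultures is not stated in the sources at hand, and p-values then measure only the spread between these libraries.

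Reads on genes numbered between 13473820 and 18633764 per library. The control libraries correlated with each other at r = 0.993 or 0.994 (log2 CPM across genes), whereas CD replicate 3 correlated with CD replicates 1 and 2 at 0.970 and 0.982, below the 0.989 between those 2 libraries, and so stood apart from them. Expression is given as CPM (reads on a gene, scaled to the library's size) after TMM normalization, and a gene was called lower or higher at a false discovery rate (FDR, Benjamini-Hochberg over all 12148 genes tested) under 0.05, by the quasi-likelihood test that edgeR provides. Among the 4 epithelial markers found, the keratins KRT7 and KRT19 were abundant (7126 and 936 CPM in the control), but CDH1 and EPCAM had at most 6 reads in any library. The lung epithelial markers SFTPB and SFTPC had no reads, NKX2-1 had at most 12, and SCGB1A1 was lower in CD, with 7, 14 and 7 reads against 20, 22 and 22 in control libraries (FDR 0.0125, edgeR).

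Relative to other genes, CD cells contained less mRNA of most ribosome biogenesis factors. Of the 62 tested, 39 were lower, 3 were higher and 20 passed the test in neither direction. The factors called lower thus made up 62.9% of those tested, whereas 22.9% of all tested genes were called lower (edgeR, FDR under 0.05). In the other direction the shares were 4.84% of the factors and 24.8% of all tested genes. Leaving out 1 library gave 1 to 5 factors called higher, beside 18% to 29.3% of all tested genes. In such bulk libraries, less mRNA of these genes per cell and fewer cells that express them cannot be told apart. CPM values are relative to the other genes of a library, and the amount of mRNA per cell was not measured.

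Of the 62 fitted fold changes of the factors, 52 were negative, where 5683 of 12148 were over all tested genes. The 52 include those of the 39 factors called lower. The median log2 fold change was -0.61, with quartiles of -1.08 and -0.28, whereas the median of all tested genes was 0.06. All CD libraries lay below all control libraries for 41 factors, which include all 39 called lower, together with DDX10 and NOC3L. Over all tested genes this was the case for 28.6%. For 17 factors the groups overlapped, and for 4 the CD libraries lay above the control libraries (29.5% of all tested genes did). A called decrease of at least 2-fold was found for 17 factors, against 9.64% of all tested genes. DESeq2, by which 20.0% of all tested genes were lower and 20.1% higher, called the same 39 factors lower and the same 3 higher.

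**Figure D1:**
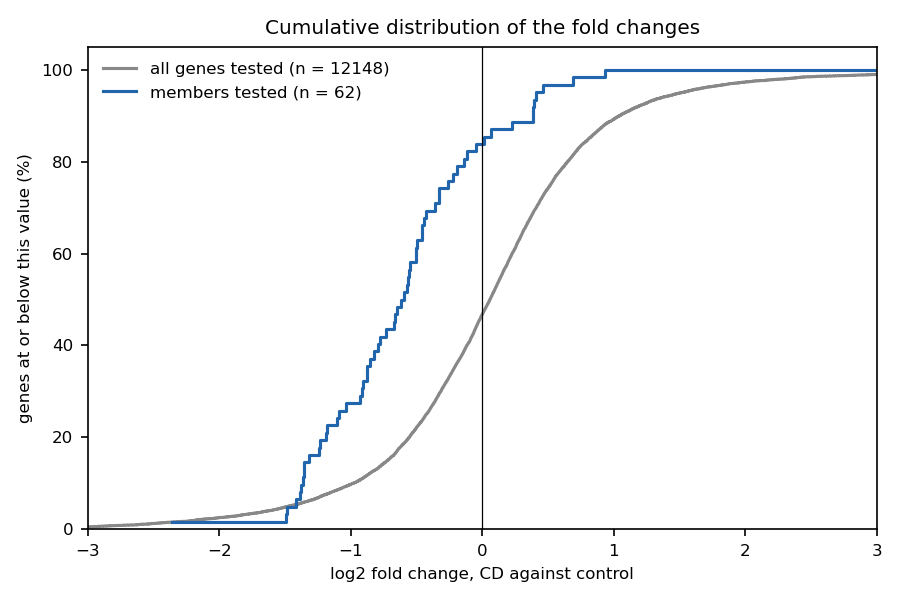
Cumulative distribution of the log2 fold change, CD against control, for the 62 tested ribosome biogenesis factors (blue) and for all 12148 tested genes (gray). The y axis gives the percentage of genes at or below each value. The blue line lies to the left of the gray one over most of the range, with medians of -0.61 and 0.06, but does not reach as far on either side as the most changed genes of the whole table.

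The same decrease was seen in each CD library. The tested factors together held 0.652%, 0.682% and 0.655% of the gene reads of the 3 control libraries (replicates 1 to 3). The corresponding CD libraries held 0.398%, 0.406% and 0.433%. Relative to the control mean of each gene, 50, 53 and 50 of the 62 factors were below it in the 3 CD libraries, respectively. The median log2 ratio to that mean was -0.62, -0.70 and -0.58 in the CD libraries and between -0.03 and 0.03 in the control libraries. CD replicate 3 held the highest value of the CD group for 37 of the 62 factors and the lowest for 16. Without this library, 48 factors were called lower, namely the same 39 and UTP15, DDX52, DDX10, DDX47, UTP3, NOC3L, DDX18, RRP15 and NOP16, and 2 were called higher. Calls increased over the whole table in that fit, where 29.2% of all tested genes were lower and 29.3% higher (edgeR, FDR under 0.05). The median log2 fold change of the factors was then -0.69.

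**Figure D2:**
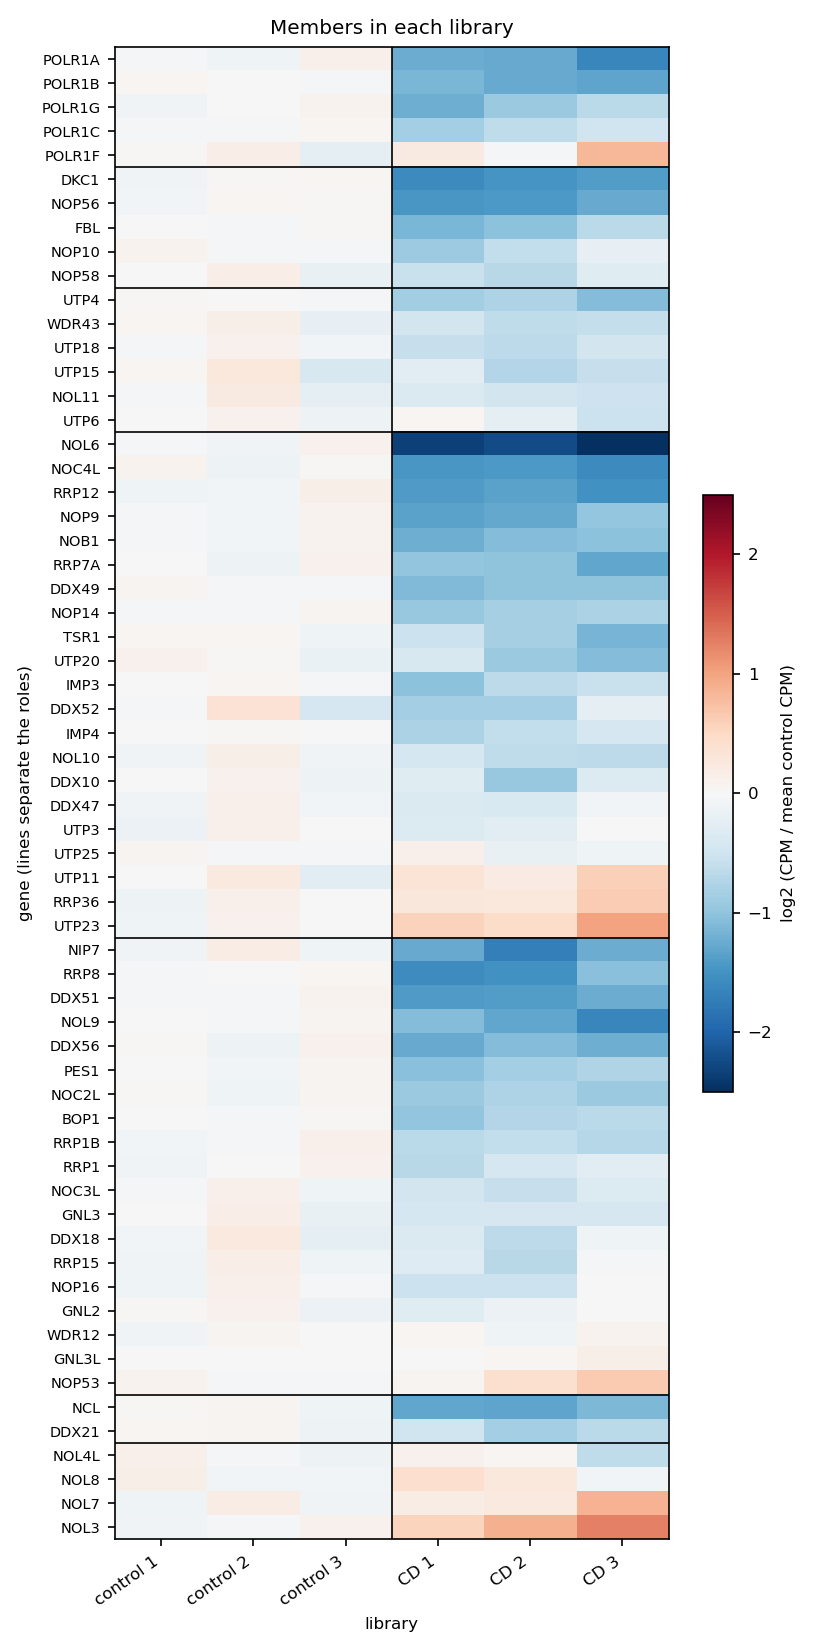
Heat map of log2 (CPM / mean control CPM) for the 62 tested factors (rows, grouped by role and separated by lines) in the 6 libraries (columns). Blue stands for expression below the control mean and red for expression above it. The CD columns are blue in most rows, deepest for NOL6, while POLR1F, UTP11, RRP36, UTP23, NOP53, NOL7 and NOL3 are red in CD replicate 3.

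Pol I was represented by 5 subunits, since POLR1D, POLR1E and POLR1H were not found by symbol. Of the 5, 4 were lower in CD cells and none was higher, with a median log2 fold change of -0.92. This count and those of the other roles stand beside 22.9% lower and 24.8% higher among all tested genes. POLR1A (ENSNVIG00000018346), the largest subunit of the enzyme and part of its catalytic center, stood at 146, 141 and 165 CPM in the control libraries and at 63.5, 62.9 and 48.8 CPM in the CD libraries. Every CD library thus had less than every control library. The decrease amounted to -1.37 ± 0.14 on the log2 scale (SE, n = 3 each, FDR 3.19e-05, edgeR), which left 38.8% of the control level. POLR1B, the second-largest subunit and the other part of the catalytic center, fell from 37.4 ± 1.23 to 15.8 ± 1.08 CPM (SD, n = 3 each), with an FDR of 5.41e-05. POLR1G and POLR1C, the latter a subunit shared with Pol III, were lower as well, at 52.9% and 63.7% of the control (FDR 8.67e-04 and 0.00207). POLR1F, a subunit of the stalk, was the one that passed in neither direction. Its levels of 9.17, 10.2 and 7.77 CPM in the control and 10.6, 8.83 and 16.1 CPM in the CD libraries overlapped, with a log2 fold change of 0.39 ± 0.24 (SE, FDR 0.208, edgeR), which was 0.07 without CD replicate 3.

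**Figure D3:**
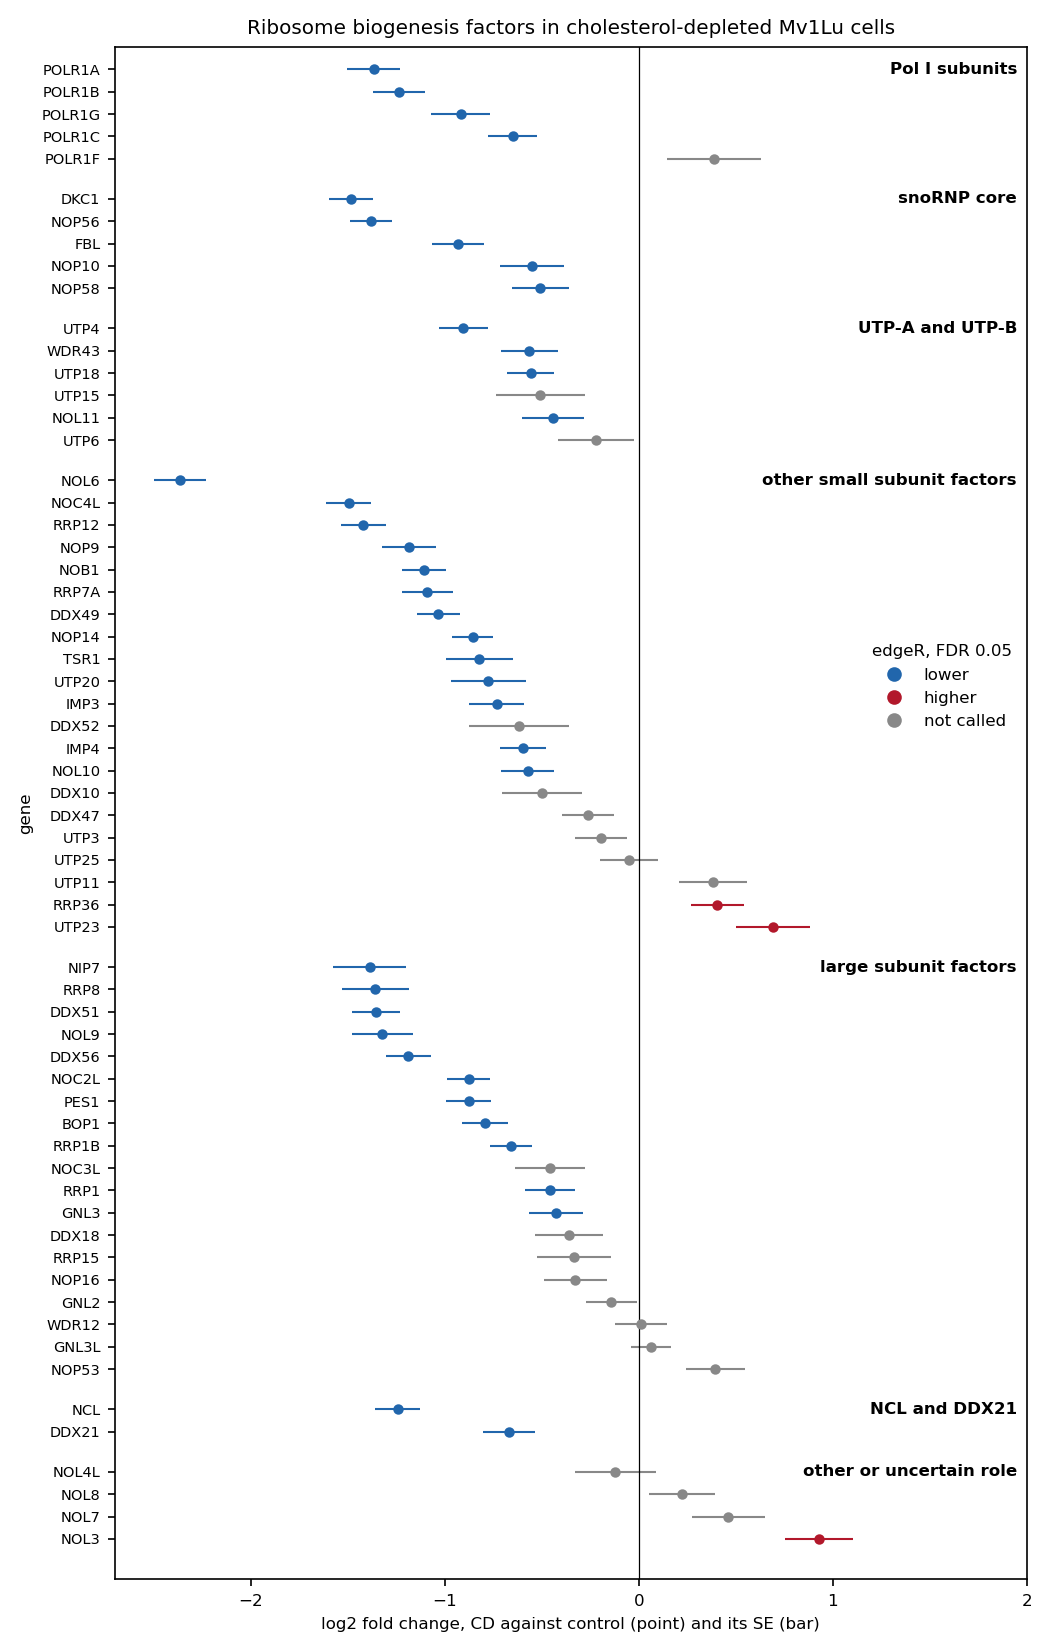
Log2 fold change, CD against control, with its standard error (bar) for each of the 62 tested factors, grouped by role and ordered within a role. Points are blue where the gene was called lower, red where it was called higher and gray where it passed in neither direction (edgeR, FDR 0.05). NOL6 lies farthest to the left at -2.36 and NOL3 farthest to the right at 0.93, and the snoRNP core proteins and the pair of NCL and DDX21 are the groups without a gray point.

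All 5 core proteins of the snoRNPs that the symbols chosen matched were lower in CD cells, with a median log2 fold change of -0.93. Box C/D particles methylate the ribose of rRNA and contain the methyltransferase fibrillarin (FBL, ENSNVIG00000010870) with NOP56 and NOP58. FBL had 406, 397 and 415 CPM in the control and 183, 200 and 255 CPM in the CD libraries, a log2 fold change of -0.93 ± 0.14 (SE, FDR 3.57e-04, edgeR). NOP56 stood at 222, 240 and 236 CPM in the control and at 85.4, 86.3 and 96.9 CPM in CD, which is 38.4% of the control level (FDR 7.34e-06). Both decreases were larger than the spread of either group, although CD replicate 3 was the highest of its group for both genes. NOP58 fell to 70.3% of the control (FDR 0.0162), a call that was lost on leaving out control replicate 1 or 2, or else CD replicate 2 (FDR 0.0548 to 0.0779, edgeR).

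Box H/ACA particles convert uridine of rRNA to pseudouridine through dyskerin (DKC1, ENSNVIG00000023613), which also belongs to the telomerase complex. DKC1 had 122, 132 and 133 CPM in the control libraries and 43.0, 46.3 and 49.1 CPM in the CD libraries. The 3 CD values lay close together, and the log2 fold change was -1.48 ± 0.11 (SE, FDR 5.92e-06, edgeR), or 35.8% of the control. NOP10, a small protein of the same particle, was less reduced, at 204, 186 and 186 CPM against 103, 125 and 166 CPM. Its CD libraries spread widely, CD replicate 3 coming close to the control, and the FDR was 0.0194, which became 0.0537 to 0.0723 on leaving out control replicate 1 or 3, or else CD replicate 2 (edgeR).

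The symbols chosen matched 6 proteins of the UTP-A and UTP-B complexes and do not cover all of them. Of these 6, 4 were lower and 2 passed in neither direction, and the median log2 fold change was -0.53. UTP4, a UTP-A protein, decreased the most of these 6, from 61.1, 60.3 and 59.2 CPM to 32.8, 35.3 and 28.3 CPM. The control values of UTP4 differed by less than 2 CPM, and its log2 fold change was -0.90 ± 0.13 (SE, FDR 2.74e-04, edgeR). WDR43 and NOL11, also of UTP-A, stood at 67.6% and 73.7% of the control (FDR 0.00979 and 0.0450), and UTP18 of UTP-B at 68.0% (FDR 0.00408). The call of NOL11 was lost on leaving out control replicate 1 or 2, or else CD replicate 1 or 2 (FDR 0.0537 to 0.194, edgeR), and that of WDR43 without control replicate 2 (FDR 0.0531). UTP15 changed by -0.51 on the log2 scale, equal to that of NOP58 after rounding, but was expressed at 7.37 CPM in the control and had a standard error of 0.23 (FDR 0.0924). UTP6 had -0.22 ± 0.20 (SE, FDR 0.378).

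The other factors of the small subunit formed the largest group, with 13 of 21 lower, 2 higher and 6 that passed in neither direction, at a median of -0.73. The shares were 61.9% lower and 9.52% higher, beside 22.9% and 24.8% of all tested genes. NOL6 (ENSNVIG00000000410), a processome protein that forms the UTP-C complex with RRP7A, decreased the most of all 62 factors. It stood at 129, 124 and 143 CPM in the control libraries and at 26.2, 28.2 and 22.5 CPM in the CD libraries. The gap between the groups was far wider than the spread within them, and 19.4% of the control level was left, a log2 fold change of -2.36 ± 0.13 (SE, FDR 8.65e-07, edgeR). RRP7A had a log2 fold change of -1.09 (FDR 9.66e-05).

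NOC4L and NOP14, which bind each other in the assembling small subunit, both decreased. NOC4L had 138, 119 and 132 CPM in the control and 47.1, 48.0 and 42.9 CPM in the CD libraries (35.5% of the control, FDR 6.53e-06, edgeR). NOP14 fell to 55.2% of the control (FDR 1.21e-04). RRP12, which acts in the maturation and nuclear export of the small subunit, went from 214, 219 and 254 CPM to 86.2, 90.9 and 79.9 CPM (37.4% of the control, FDR 9.79e-06). For both NOC4L and RRP12, CD replicate 3 was the lowest of the CD libraries, so that this library was not shifted in 1 direction for all factors.

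NOB1, the endonuclease that makes the last cut in the RNA of the small subunit, fell from 112 ± 6.54 to 51.9 ± 3.51 CPM (SD, n = 3 each, FDR 4.08e-05, edgeR). TSR1, which rides on the late pre-40S particle, was at 56.6% of the control (FDR 0.00310). IMP3 and IMP4, partners within the U3 snoRNP, were at 60.2% and 66.2% (FDR 0.00202 and 0.00247). NOP9, the helicase DDX49, UTP20 and NOL10 were also lower, with log2 fold changes of -1.18, -1.03, -0.77 and -0.57.

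The 2 factors of this group that were higher, UTP23 and RRP36, both take part in the early cuts of the rRNA precursor. UTP23 had 8.88, 10.2 and 9.48 CPM in the control and 14.1, 13.0 and 19.1 CPM in CD, a log2 fold change of 0.69 ± 0.19 (SE, FDR 0.0131, edgeR). RRP36 had 63.5, 75.4 and 68.9 CPM in the control and 84.4, 83.6 and 107 CPM in CD, or 0.41 ± 0.14 (SE, FDR 0.0322), and 0.24 without CD replicate 3. The groups did not overlap for either gene, and the highest value in both came from CD replicate 3. The call of RRP36 was lost when control replicate 1, 2 or 3 or CD replicate 2 or 3 was left out (adjusted p of edgeR or DESeq2 between 0.0214 and 0.144 over the 12 alternative settings), and that of UTP23 without control replicate 1 or 3 (between 0.00737 and 0.0637 over the same settings). The helicases DDX52, DDX10 and DDX47 and the processome proteins UTP3, UTP25 and UTP11 passed in neither direction, with log2 fold changes from -0.62 for DDX52 to 0.38 for UTP11 (0.24 without CD replicate 3).

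**Figure D4:**
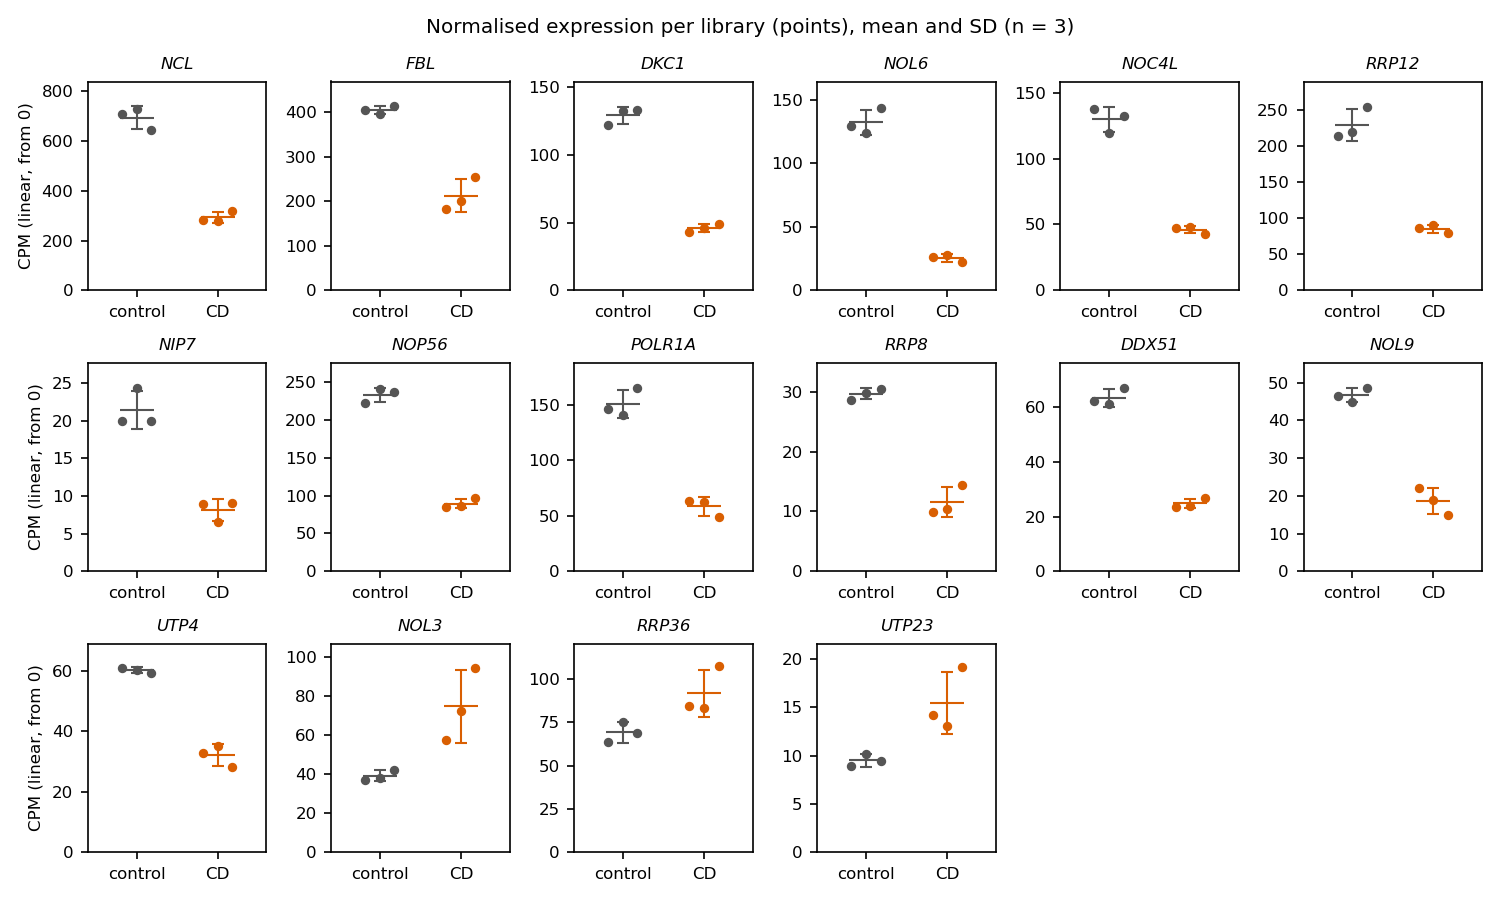
Normalized expression (CPM, linear axis from 0, with its own scale for each gene) of 16 factors in the 3 control (gray) and 3 CD (orange) libraries. Points are libraries, the horizontal line is the mean and the bar its SD. The groups are separate in every panel, with CD below control in 13 panels and above it for NOL3, RRP36 and UTP23.

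Of the large subunit factors, 11 of 19 were lower, none was higher and 8 passed in neither direction, with a median log2 fold change of -0.46. NIP7 (ENSNVIG00000008013), an RNA-binding factor of the pre-60S particle, decreased the most in this group. Its 20.0, 24.3 and 19.9 CPM in the control compared with 8.97, 6.50 and 9.08 CPM in the CD libraries, a log2 fold change of -1.39 ± 0.19 (SE, FDR 2.24e-04, edgeR). RRP8, a methyltransferase that modifies a base of the large subunit rRNA, had 28.7, 29.9 and 30.5 CPM against 9.96, 10.4 and 14.4 CPM (39.0% of the control, FDR 1.55e-04). For both genes the lowest control library lay above the highest CD library by a wide margin.

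DDX51, a helicase of early large subunit assembly, went from 62.3, 61.1 and 67.3 CPM to 23.7, 24.0 and 26.9 CPM (FDR 1.78e-05, edgeR). NOL9, a polynucleotide kinase that processes the spacer ahead of the large subunit rRNA, went from 46.4, 45.0 and 48.6 CPM to 22.1, 19.0 and 14.98 CPM (FDR 1.08e-04). The log2 fold changes were -1.35 ± 0.12 and -1.32 ± 0.16 (SE), respectively. The helicase DDX56 stood at 43.9% (FDR 2.69e-05) and NOC2L, a pre-60S transport factor, at 54.5% (FDR 1.36e-04).

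Of the PeBoW complex, PES1 and BOP1 were lower and WDR12 passed in neither direction. PES1 had 333, 319 and 349 CPM in the control and 161, 186 and 199 CPM in CD, a log2 fold change of -0.88 ± 0.12 (SE, FDR 2.00e-04, edgeR). BOP1 had 380, 365 and 383 CPM in the control and 189, 226 and 237 CPM in CD, or -0.79 ± 0.12 (SE, FDR 4.06e-04). WDR12 had 25.3, 28.0 and 26.9 CPM in the control and 27.6, 24.9 and 28.5 CPM in CD, so that its groups overlapped, with a log2 fold change of 0.01 ± 0.13 (SE, FDR 0.950). The difference between WDR12 and its partners was not tested.

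The related proteins RRP1B and RRP1 were lower, at 63.3% and 72.8% of the control (FDR 7.28e-04 and 0.0150, edgeR), RRP1 with an FDR of 0.0700 without control replicate 3. Of the GTPases, GNL3 (nucleostemin) was lower, at 34.3 ± 4.09 CPM in the control and 25.5 ± 0.285 CPM in CD (SD, n = 3 each, FDR 0.0274, and 0.0539 to 0.123 on leaving out control replicate 1 or 2, or else CD replicate 1 or 2, edgeR), whereas GNL2 and GNL3L passed in neither direction, with log2 fold changes of -0.14 and 0.06. NOC3L, DDX18, RRP15 and NOP16 had log2 fold changes between -0.46 and -0.33 without passing the test. NOP53 had 367, 333 and 336 CPM in the control and 361, 458 and 545 CPM in CD. Its CD libraries were spread over a wide range that began within that of the control, and its log2 fold change of 0.40 ± 0.15 missed the threshold (FDR 0.0536, edgeR). It passed without CD replicate 1 (FDR 0.00426), with library totals (FDR 0.0292) and without the filter on low counts (FDR 0.0352), and its log2 fold change decreased to 0.21 when CD replicate 3 was left out.

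Nucleolin (NCL, ENSNVIG00000003097), an abundant RNA-binding protein of the nucleolus that takes part in rRNA transcription and processing, had 708, 728 and 642 CPM in the control and 283, 277 and 319 CPM in the CD libraries. The CD libraries thus held 42.3% of the control level, and the decrease of -1.24 ± 0.12 on the log2 scale exceeded the spread of both groups (SE, FDR 2.17e-05, edgeR). DDX21, a helicase that acts in both rRNA transcription and processing, fell by 0.67 ± 0.13 on the log2 scale (SE, FDR 0.00230) to 62.9% of the control.

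Symbols of the NOL series were given to proteins seen in the nucleolus, and some of them have other or uncertain roles. Among the 5 such genes none was lower, 1 was higher and 3 passed in neither direction, while NOL4 was not tested. NOL3, which is known as an inhibitor of apoptosis with a CARD domain rather than as an assembly factor, had 36.8, 38.3 and 42.2 CPM in the control and 57.5, 72.2 and 94.2 CPM in CD. All CD libraries lay above the control, and the log2 fold change was 0.93 ± 0.18 (SE, FDR 0.00171, edgeR). NOL7, NOL8 and NOL4L had log2 fold changes of 0.46, 0.22 and -0.12 (FDR 0.0675, 0.307 and 0.662). NOL7 passed as higher without CD replicate 1 (FDR 0.0272, edgeR) and without the filter on low counts (FDR 0.0454), and its log2 fold change was 0.18 without CD replicate 3. Without these genes, 39 of 58 tested factors were lower and 2 higher, at a median of -0.66.

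The size of the change varied with expression among the factors. The 20 factors with the lowest mean expression, from 6.26 to 26.9 CPM, included 7 that were lower, and their median log2 fold change was -0.45 with a median standard error of 0.19. Of all tested genes within that range of expression, 18.2% were lower. Of the 21 in the middle, 14 were lower, at a median of -0.57 and a standard error of 0.14, beside 25.2% of all tested genes in their range. Of the 21 with the highest expression, from 78.9 to 493 CPM, 18 were lower, at a median of -0.88 and a standard error of 0.12, beside 33.3% of all tested genes in that range. Across the 62 factors, the Spearman correlation of the log2 fold change with mean CPM was -0.312, compared with -0.102 across all tested genes. This is a description, since all values come from the same 6 libraries and the mean includes both groups.

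Other genes of the pathway, from lists written with earlier results of these data known, moved as follows. Of 68 further ribosome biogenesis factors, 55 were tested, of which 30 were lower, 1 was higher and 24 passed in neither direction, at a median log2 fold change of -0.40. The shares were 54.5% lower and 1.82% higher, beside 22.9% and 24.8% of all tested genes. NAT10, the acetyltransferase of small subunit rRNA, fell the most, from 55.0, 52.5 and 58.5 CPM to 10.1, 11.4 and 10.6 CPM, or -2.37 ± 0.13 on the log2 scale (SE, FDR 8.66e-07, edgeR). SBDS, which acts on the large subunit in the cytoplasm after export, was the single gene of this list that was higher, rising from 75.5 ± 5.67 to 128 ± 8.17 CPM (SD, n = 3 each, FDR 3.95e-04).

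Of the 12 subunits and partners of the nuclear exosome, which trims rRNA precursors, 9 were tested, and 6 were lower, none was higher and 3 passed in neither direction (median -0.64). The lower share was 66.7%, beside 22.9% of all tested genes. EXOSC2 decreased the most, to 34.5% of the control (FDR 1.18e-05, edgeR), and the catalytic subunit EXOSC10 the least of those called, to 69.1% (FDR 0.00271). The 7 factors of Pol I initiation and termination showed no common direction, with 2 lower, 1 higher and 4 in neither direction. The shares were 28.6% lower and 14.3% higher, beside 22.9% and 24.8% of all tested genes. Their median was 0.16, and -0.14 without CD replicate 3. UBTF, which keeps the rRNA genes open, fell to 76.1% of the control (FDR 0.0110, and 0.0566 without control replicate 3), and TAF1C, a subunit of the promoter factor SL1, to 65.0% (FDR 0.00248). Another SL1 subunit, TAF1B, rose from 11.7 ± 2.34 to 17.1 ± 2.49 CPM (SD, n = 3 each, FDR 0.0423), a call that was lost on leaving out control replicate 1 or 3, or else CD replicate 1 or 2 (FDR 0.0531 to 0.172, edgeR), and the initiation factor RRN3 had a log2 fold change of -0.09 ± 0.14 (SE, FDR 0.622).

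Of 10 genes listed for the MYC network, 6 were found and 5 were tested, of which 4 were higher and 1 was lower, where 24.8% and 22.9% of all tested genes were. MYC itself had 21.6, 21.5 and 20.9 CPM in the control and 41.4, 42.8 and 41.1 CPM in the CD libraries, a log2 fold change of 0.97 ± 0.12 (SE, FDR 1.43e-04, edgeR). The values of MYC were nearly equal within each group, so that CD replicate 3 did not stand apart for this gene. MXI1, which binds MAX in competition with MYC and represses the same sites, had 1.58, 2.39 and 2.98 CPM in the control and 30.0, 26.0 and 26.6 CPM in CD (log2 fold change 3.55 ± 0.23, SE, FDR 2.00e-06). MXD1 and MXD4, proteins of the same family of MAX partners, were also higher, with log2 fold changes of 1.77 and 1.07, and MYCL was lower at -0.99. The protein levels and activities of these factors were not measured, and their part in the decrease of the assembly factors was not tested.

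**Figure D5:**
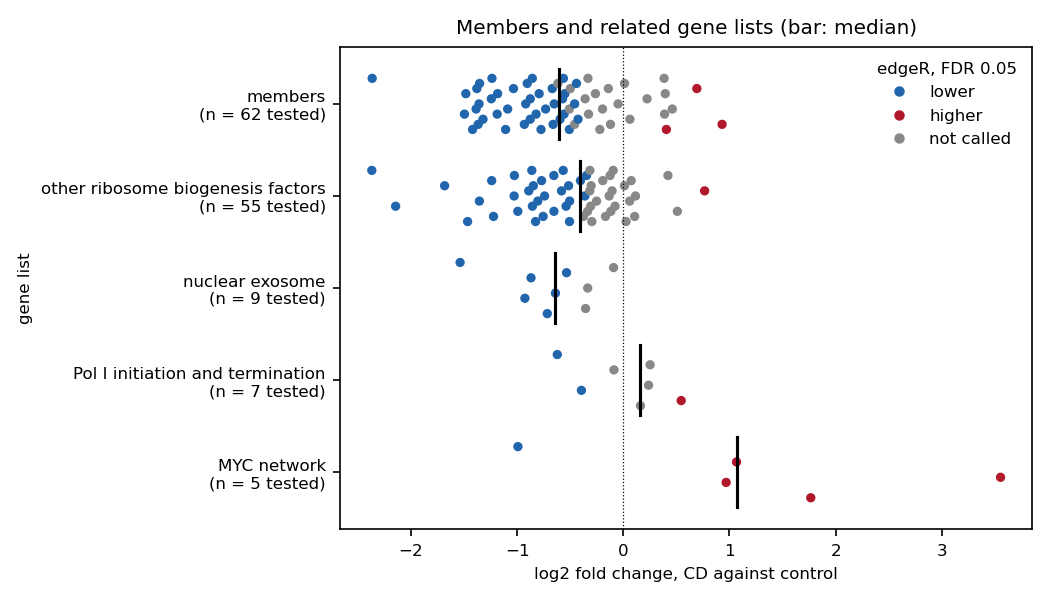
Log2 fold change, CD against control, of the ribosome biogenesis factors chosen by symbol (members) and of 4 related gene lists. Each point is a gene, colored by its call (edgeR, FDR 0.05), and the bar is the median of the list. Most points of the upper 3 lists lie below 0, with medians of -0.61, -0.40 and -0.64, whereas 4 of the 5 genes of the MYC network lie above 0.

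The ribosomal proteins themselves are the parts that the assembly factors put together. Of the 29 symbols of cytosolic ribosomal proteins that were tested, none was lower, 1 was higher and 28 passed in neither direction (edgeR, FDR under 0.05), beside 22.9% lower and 24.8% higher among all tested genes. Their log2 fold changes ranged from -0.17 to 0.51 around a median of 0.15. The sign of this median depended on CD replicate 3, without which the median was -0.14 and 4 of these genes were lower and none higher, in a fit that called 29.2% of all tested genes lower and 29.3% higher. The difference between these genes and the assembly factors was not tested. The 29 genes are those found by symbol, and ribosomal protein genes without such a symbol were not analysed. Ribosomal protein genes have many near-identical processed copies in mammalian genomes, and the count table holds reads that mapped to several places, 4.81% to 5.71% per library, in a row of their own and not on genes.

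Markers of other cell types also differed between the groups. The summed expression of the 5 fibroblast markers ranged from 303 to 379 CPM in the control and from 179 to 228 CPM in the CD libraries. Of the 4 that were tested, 3 were lower, beside 22.9% of all tested genes, and PDGFRA passed in neither direction (FDR 0.921, edgeR). LUM was not tested and had 9, 14 and 12 reads in the CD libraries against 1, 2 and 4 in the control libraries. The summed expression of the 4 epithelial markers found fell from between 7725 and 8377 CPM to between 1478 and 1945 CPM, almost wholly through KRT7. CD68, listed as a leukocyte marker, was higher in CD (5.45 ± 0.273 against 19.7 ± 2.75 CPM, SD, n = 3 each), while PTPRC, which defines leukocytes, had at most 1 read in any library, and the endothelial markers summed to at most 0.307 CPM. The part of these differences in the levels of the ribosome biogenesis factors was not tested.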

How the data were processed

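RNA-seq was performed on 3 control and 3 CD libraries of Mv1Lu cells, grouped by the sample labels. Libraries of poly(A)-selected mRNA were prepared with Nextera XT reagents. Per the labels, the authors processed the reads with fastp 0.20.1, STAR 2.7.2a and DESeq2 1.30.1 (R 4.0.3). The genes' read counter and its strand setting are not given in the sources used here, so that overlapping and antisense genes are uncertain. The authors deposited raw counts of reads per gene. The 4 rows for reads assigned to no gene, 29.3% to 47.2% of the reads, were left out. The files of normalized expression repeat these counts, scaled, beside identifiers in another order, and were not used.

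Counts were analyzed with edgeR 4.0.16 in R 4.3.3 (filterByExpr with a minimum count of 10 and a minimum total of 15, TMM, robust glmQLFit, glmQLFTest, condition only), with Benjamini-Hochberg adjustment over 12148 genes. The SE is the size of the log2 fold change divided by the square root of F. The fit was tested on simulated data. Tested factors had at least 69 reads in every library. With 3 against 3 libraries, an exact permutation test of 1 gene cannot reach a two-sided p below 0.1, and no such test was used. The members, roles and lists were chosen with earlier results of these data known. Values per library are given for NCL, FBL, DKC1, the 10 called members with the largest change and no overlap, the most changed of each role and those called higher. In the other lists, the called genes at both ends, UBTF, RRN3 and MYC were named. RRP8 was moved to the large subunit group afterwards, and POLR1B, NOP10, POLR1F, PES1, BOP1, WDR12, NOP53, MXD1, MXD4 and other members were described in addition after their values were seen. Alternatives were DESeq2 1.42.0, other scalings and filters, the replicate number as a block, leaving out each library and an FDR of 0.01.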

Additional observations from a re-analysis of the deposited data

How the results depend on the processing

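Of the 39 factors called lower, 33 were called under all 12 alternative settings. The others were NOP10, NOP58, WDR43, NOL11, RRP1 and GNL3, each of which lost its call under at least 1 setting, WDR43 only without control replicate 2 and RRP1 only without control replicate 3. NOL11 also lost it with library totals and without the filter, and NOL11 and GNL3 with the replicate block. Leaving out 1 library gave 35 to 48 factors called lower, 1 to 5 called higher and medians of -0.69 to -0.58, the 48 and the -0.69 without CD replicate 3, the 5 without CD replicate 1, and 1 without control replicate 1 or 3. The shares of all tested genes moved with these settings, from 17.8% to 29.2% lower and from 18% to 29.3% higher. Of the higher calls, NOL3 held under all 12 settings. Without the filter on low counts 5 factors were higher (17.7% of all tested genes), and at an FDR of 0.01 1 was higher (16.5%) and 34 were lower (16.8%). No called factor changed direction. The fold changes near 0 that did were WDR12 (-0.0142 with DESeq2, -0.0089 with edgeR on DESeq2 size factors, and -0.0638 to 0.0424 when 1 library was left out), GNL3L (-0.0169 to 0.11 when 1 library was left out) and NOL4L (-0.25 to 0.0424). The cause was not tested. The median over all tested genes stayed between 0.02 and 0.09 under these settings.

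With the replicate number as a block, 37 factors were lower and 3 higher, at a median of -0.61, beside 21.7% and 22.8% of all tested genes. Deviations of same-numbered control and CD libraries from their group means correlated at -0.02, -0.33 and -0.19. Pairs of libraries with different numbers had correlations from -0.02 to 0.26. With 3 libraries per group, these values cannot decide whether the numbers mark a pairing. The 20 factors with the lowest expression had a median SE of 0.19. How much of it is counting error was not tested.

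Among the related lists, run under the same settings after the data were seen, the counts of lower genes ranged from 21 to 36 for the further biogenesis factors, 5 to 8 for the exosome, 1 to 2 for Pol I initiation and termination, 0 to 4 for the ribosomal protein symbols, and stayed at 1 for the MYC network, where 4 were higher throughout. The share of all tested genes called lower ranged from 15.9% to 29.2% over these settings. Leaving out 1 library gave 1 to 3 higher factors in the first list, 0 to 1 for Pol I initiation and termination and 0 to 2 for ribosomal proteins. The single higher Pol I factor (TAF1B) fell to 0 with library totals, the replicate block and an FDR of 0.01, and the single higher ribosomal protein to 0 with DESeq2 size factors and an FDR of 0.01, which left 1 lower Pol I factor.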

Other observations

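Among the further ribosome biogenesis factors, TCOF1 and MYBBP1A, also picked after their values were seen, stood next to NAT10 in the size of their decrease. TCOF1, a partner of UBTF in rRNA transcription that is mutated in Treacher Collins syndrome, had 217, 207 and 231 CPM in the control and 50.5, 53.1 and 44.8 CPM in the CD libraries (log2 fold change -2.14 ± 0.12, SE, FDR 7.69e-07, edgeR). MYBBP1A, a nucleolar protein that also binds transcription factors, fell from 591 ± 66.2 to 184 ± 7.40 CPM (SD, n = 3 each, FDR 3.90e-06).

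In the RefSeq annotation of another mink assembly (ASM_NN_V1), DDX51 and NOC4L are neighboring genes with no protein-coding gene between them, and both were lower, to 39.1% and 35.5% of the control. NIP7, NOB1 and UTP4 also lie near each other there, with 6 protein-coding genes between NOB1 and NIP7 and 3 between NIP7 and UTP4, and their log2 fold changes were -1.39, -1.11 and -0.90. NOP58 and WDR12, with 5 genes between them, had -0.51 and 0.01.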
